A study of Mus musculus with 7 samples.

Results

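Atp2b1, Atp2b4 and Slc8a1 encode the proteins that carry calcium out of cells across the plasma membrane, and the binding sites of the vitamin D receptor (VDR) at these 3 genes were described in mouse intestinal epithelium. Every peak of the 6 deposited VDR peak lists was taken whose centre lay within 50 kb of one of the gene bodies, or, for Atp2b1, up to 400 kb upstream of its start. Peaks of different libraries that overlapped by at least 1 bp were merged into 1 region. This gave 79 regions of 87029 in all, 62 at Atp2b1, 13 at Atp2b4 and 4 at Slc8a1. They were chosen by position alone, which does not show that a region acts on the gene it is counted with.

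The samples were epithelial cells released with EDTA from the duodenum and jejunum of wild-type mice aged 8 weeks and fed standard chow. The mice had received vehicle (3 libraries) or 1,25(OH)2D3 (3 libraries), the form of vitamin D that activates VDR, at a dose of 10 ng per g, and tissue was taken after 1 h. VDR was mapped by chromatin immunoprecipitation and sequencing (ChIP-seq). The study text speaks of 3 mice without saying whether each library is a separate animal, so the p-values below measure only the spread between these libraries. The files hold peak positions and no transcript levels, so the purity of the epithelium was not checked against marker genes.

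Calcium absorbed from the gut lumen enters the enterocyte through apical channels, is carried through the cell bound to calbindin, and leaves at the basolateral side. The main exit is the plasma membrane calcium ATPase, a pump driven by ATP and stimulated by calmodulin. Atp2b1 encodes its widespread form PMCA1, which is regarded as the main basolateral pump of the absorptive cell, and Atp2b4 encodes PMCA4. Slc8a1 encodes the sodium-calcium exchanger NCX1, which exports calcium in exchange for sodium and is best known from heart muscle. VDR binds DNA as a heterodimer with the retinoid X receptor, typically at a DR3 element, a pair of hexamer half-sites in the same orientation 3 bp apart.

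The sequences that the results turn on are shown first, read from the mm9 genome. Windows of 300 bases on the plus strand stand for the binding patterns found: a region 5′ of Atp2b1 with a peak in all 6 libraries, and the start-site regions of Atp2b1 and Atp2b4, each with a peak in all 3 hormone libraries and in no vehicle library. Capitals mark the half-sites of the best DR3 match where it had at most 2 mismatches over the 12 scored positions. Each half-site was scored against RGKTSA, where R is A or G, K is G or T, and S is C or G. Half-sites with different letters, such as AGGTCA and GGTTCA, can thus both match in full. The windows are chr10:98056592-98056891, chr10:98377341-98377640 and chr1:135697723-135698022.
Atp2b1 region at -321 kb, all 6 libraries: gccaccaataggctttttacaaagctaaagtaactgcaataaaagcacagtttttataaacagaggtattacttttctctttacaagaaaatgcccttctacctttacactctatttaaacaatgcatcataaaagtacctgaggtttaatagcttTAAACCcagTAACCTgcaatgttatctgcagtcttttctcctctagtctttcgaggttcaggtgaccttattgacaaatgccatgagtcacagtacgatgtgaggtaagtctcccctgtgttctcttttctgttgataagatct
Atp2b1 region at -296 bp, hormone libraries only: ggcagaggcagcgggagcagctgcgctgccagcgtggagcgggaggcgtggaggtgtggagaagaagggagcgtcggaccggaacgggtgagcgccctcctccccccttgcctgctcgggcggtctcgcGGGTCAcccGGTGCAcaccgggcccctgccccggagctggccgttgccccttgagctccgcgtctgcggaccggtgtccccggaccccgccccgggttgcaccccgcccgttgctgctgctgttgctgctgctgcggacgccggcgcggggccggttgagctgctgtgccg
Atp2b4 region at -254 bp, hormone libraries only: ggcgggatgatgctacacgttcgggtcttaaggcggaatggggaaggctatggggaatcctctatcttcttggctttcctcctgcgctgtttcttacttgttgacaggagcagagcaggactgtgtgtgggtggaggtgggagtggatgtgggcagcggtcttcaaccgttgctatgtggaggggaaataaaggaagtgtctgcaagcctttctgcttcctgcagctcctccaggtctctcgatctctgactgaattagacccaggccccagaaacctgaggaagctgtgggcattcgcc

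A second set shows the DR3 matches with at most 1 mismatch in Atp2b1 regions with a peak in at least 2 libraries, leaving out one that lies in the transcribed 3′ end. Each is written 5′ to 3′ on the strand of the element, with 15 bases on either side and the half-sites in capitals. They lie at chr10:98131573-98131617 (minus strand), chr10:98290397-98290441 (plus), chr10:98334917-98334961 (plus), chr10:98360743-98360787 (minus), chr10:98377455-98377499 (plus) and chr10:98471353-98471397 (plus).
Region at -246 kb, 3 hormone and 2 vehicle libraries, 1 mismatch: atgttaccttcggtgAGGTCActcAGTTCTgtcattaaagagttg
Region at -87.4 kb, hormone libraries only, 0 mismatches: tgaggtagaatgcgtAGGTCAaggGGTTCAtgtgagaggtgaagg
Region at -42.8 kb, 3 hormone and 1 vehicle libraries, 1 mismatch: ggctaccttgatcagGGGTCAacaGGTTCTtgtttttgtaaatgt
Region at -17.1 kb, all 6 libraries, 1 mismatch: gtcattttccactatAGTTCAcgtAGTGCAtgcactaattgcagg
Region at -296 bp, hormone libraries only, 1 mismatch: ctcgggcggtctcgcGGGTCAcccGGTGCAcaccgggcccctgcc
Region at 93.5 kb in an intron, 2 hormone and 1 vehicle libraries, 1 mismatch: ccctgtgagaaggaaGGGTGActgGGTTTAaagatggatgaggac

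The libraries differed in depth and in the share of tags in peaks, and both bear on every count below. Replicate 3 of each group was deep, with 68560701 tags for vehicle and 66524392 for 1,25(OH)2D3, against 15991198 to 19733260 tags in the other 4. Between 2.58% and 8.10% of tags lay in peaks with vehicle and between 11.9% and 18.96% with hormone. Vehicle replicate 3 had 48424 peaks, more than any hormone library (25509 to 41721), while vehicle replicates 1 and 2 had 8755 and 14887. All 6 lists were called against 1 input, and the labels list a single input, from tissue with the hormone dose. The comparison with it removed 61.5% to 77.5% of putative peaks with vehicle and 43.4% to 63.2% with hormone, and its part in the missing vehicle peaks was not tested. The lists give no tag count per peak, so binding was described by the presence of a peak and by its percentile in the list (100 for the first peak, 0 for the last), which is a position in the list and not an occupancy.

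The 3 genes differed in how often VDR peaks were found. Atp2b1 had peaks in every library, most of them upstream of the gene, Atp2b4 had peaks in all but vehicle replicate 1, and Slc8a1 had peaks in vehicle replicate 3 alone. Of the 79 regions, 6 (7.59%) had a peak in all 6 libraries, where 4.99% of all regions did. Another 6 (7.59%) had a peak in all 3 hormone libraries and in no vehicle library, called hormone-only below, against 5.39% of all regions. The reverse pattern, all 3 vehicle libraries and no hormone library, was found at 0 of the 79 and at 0.0299% of all regions. Peaks in 1 library only made up 43 of the 79 (54.4%, against 62.6% of all regions), and 20 of these came from vehicle replicate 3 (25.3% of the 79, against 37% of all regions).

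All 6 regions with a peak in every library lay upstream of Atp2b1. Among the 36 member regions with a peak in at least 2 libraries, 6 were in all 6 (13.3% of such regions genome-wide) and 6 were hormone-only (14.4% genome-wide). The 2 classes stood at different places in the lists: the mean percentile of the regions in all 6 libraries ran from 92.2 to 99.97 with a median of 97.2, and that of the hormone-only regions from 35.3 to 83.0 with a median of 61.7. Genome-wide the medians were 83.6 (interquartile range 68.0 to 92.8) and 51.0 (31.9 to 68.9). The mean was over all 6 libraries for the first class and over the hormone libraries alone for the second. Over the hormone libraries alone the first class ran from 95.97 to 99.98. The classes are defined by which lists hold a peak, and the first needs a peak in every list, the shortest included. The contrast in place can thus follow from the definition, and no conclusion on binding was drawn from it.

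**Figure D1:**
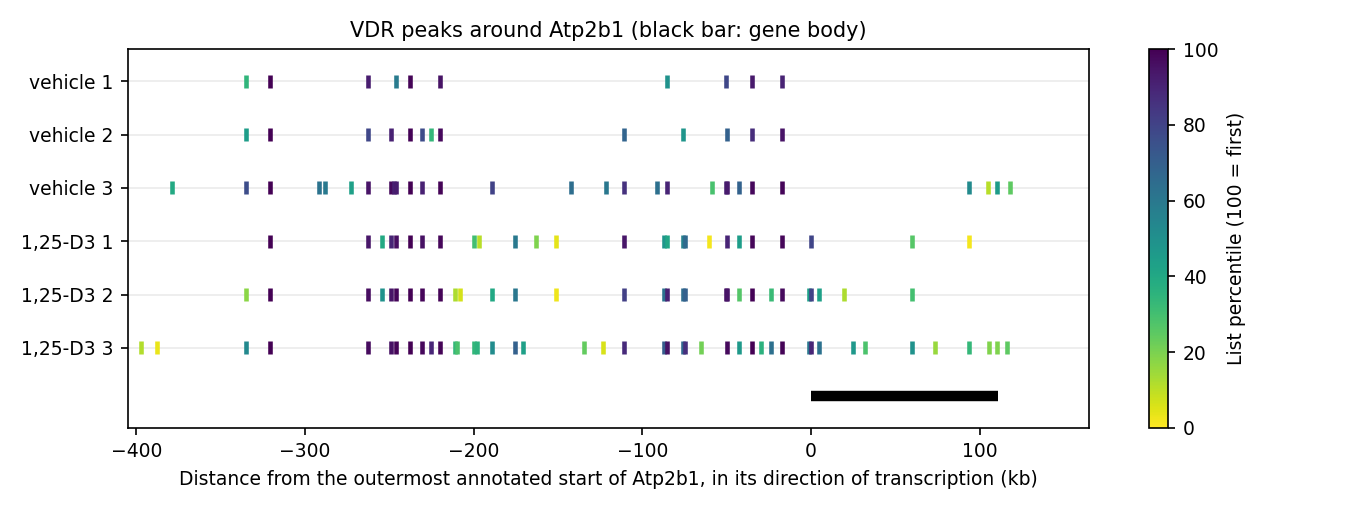
VDR peaks around Atp2b1 in each of the 6 libraries (rows), plotted by distance in kb from the annotated start in the direction of transcription, with the black bar marking the gene body and colour giving the list percentile (100 for the first peak of a library). Peaks in all 6 libraries line up at -321, -263, -238, -220, -34.8 and -17.1 kb, and the column of peaks at the start is present in the 3 hormone rows only.

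Atp2b1 (ENSMUSG00000019943.8, chr10:98377786-98488777, plus strand, 111 kb) has 1 annotated transcription start. No other protein-coding gene starts inside its window, and the nearest protein-coding start upstream, that of C030005K15Rik, lies at -1188 kb. Within 50 kb of the gene body the vehicle libraries had 2, 3 and 8 peaks (replicates 1, 2 and 3) and the hormone libraries 7, 10 and 17. The hormone libraries were higher at each depth, but the deep vehicle library with 8 peaks exceeded the shallow hormone library with 7, so the groups overlapped. The mean was 4.33 ± 3.21 with vehicle and 11.3 ± 5.13 with hormone (SD, n = 3), a difference of 7 peaks (two-sided exact permutation p = 0.2, where 3 against 3 cannot go below 0.1). Every hormone library was above every vehicle library at 17.7% of all genes with a peak, and Atp2b1 was not among them. Among the shallow libraries the means were 8.5 and 2.5, and the deep pair had 17 and 8. For scale, 97.9% of 22367 protein-coding genes had fewer peaks on average with hormone and 89.2% had fewer with vehicle, and the median gene had 2.33 and 1.33. These windows grow with the length of the gene, which the ranking does not take into account.

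In the 400 kb upstream of Atp2b1 the vehicle libraries had 10, 13 and 25 peaks and the hormone libraries 24, 27 and 34. Each hormone library exceeded the vehicle library of its own depth, and the ranges met at 24 and 25. The means were 28.3 ± 5.13 and 16.0 ± 7.94 (SD, n = 3), a difference of 12.3 peaks (two-sided exact permutation p = 0.2). In the nearer part of this interval the groups did not overlap. Within 200 kb of the start the vehicle libraries had 4, 5 and 12 peaks and the hormone libraries 16, 16 and 20, and within 100 kb they had 4, 4 and 8 against 10, 12 and 13 (exact permutation p = 0.1 for each, the smallest possible). Every hormone library was above every vehicle library at 18.9% of all genes with a peak in the 200 kb window, at 16.7% in the 100 kb window and at 19.9% in the 400 kb window. The median gene had 7.33 peaks in the same interval with hormone and 4.67 with vehicle, and 99.3% of genes had fewer than Atp2b1 in either group. As a share of the library, the interval took 11.4, 8.73 and 5.16 of every 10000 vehicle peaks and 9.41, 8.88 and 8.15 of every 10000 hormone peaks, which overlap (means 8.44 and 8.81, exact permutation p = 0.8). Within 50 kb of the body the same share was 2.28, 2.02 and 1.65 with vehicle and 2.74, 3.29 and 4.07 with hormone, with every hormone library above every vehicle library (exact permutation p = 0.1, the smallest possible). The share was ordered in that way at 11.1% of all genes with a peak. With each list cut to its first 8755 peaks, the length of the shortest, the libraries had 2, 3 and 3 peaks with vehicle and 4, 4 and 4 with hormone (exact permutation p = 0.1), which were also apart, as at 6.65% of genes with a peak in the shortened lists.

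**Figure D2:**
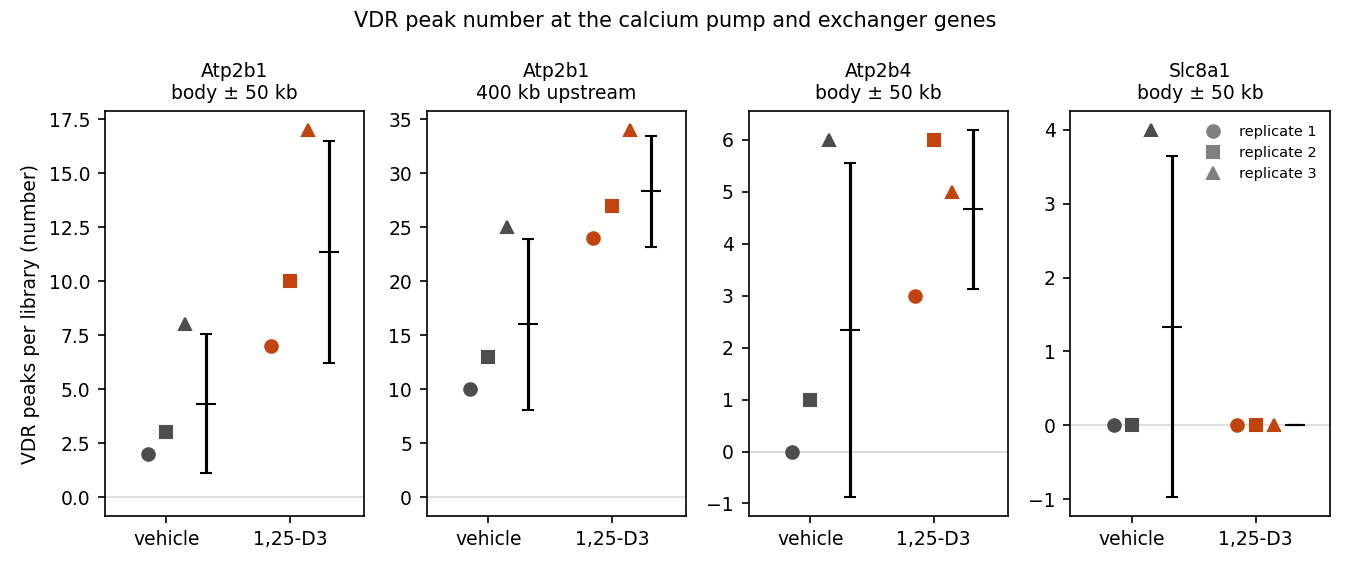
Number of VDR peaks per library in the windows of the 3 genes, with vehicle in grey and 1,25(OH)2D3 in orange, symbols for the replicate number, and a bar for the mean ± SD of 3 libraries. At Atp2b1 the hormone libraries reached 17 peaks near the gene and 34 upstream, while at Slc8a1 the only library above 0 was vehicle replicate 3 with 4.

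The 400 kb upstream of Atp2b1 held 28 regions with a peak in at least 2 libraries, or 7 per 100 kb. The Atp2b1 gene body had 3.60 per 100 kb and the whole genome 1.23. With 50 kb on either side of the gene body, Atp2b1 had 5.21, Atp2b4 2.02 and Slc8a1 0. An upstream interval of 400 kb was not taken for Atp2b4 and Slc8a1. The 6 upstream regions of Atp2b1 in all 6 libraries compare with a median of 1 per gene over the same interval, and 468 of 22367 genes (2.09%) had as many or more. The regions were not evenly spread: the stretch from -250 to -200 kb held 7 of the 28, of which 2 were in all 6 libraries, and that from -50 kb to the start held another 7, of which 2 were in all 6. In 3 of the 8 upstream bins of 50 kb every hormone library had a peak in more regions than every vehicle library. How often bins of 50 kb are ordered in this way genome-wide was not counted. These bins are thus described without a background, and no pattern along the interval was read from them. From -200 to -150 kb the vehicle libraries had 0, 0 and 1 and the hormone libraries 5, 3 and 5. From -100 to -50 kb they had 2, 1 and 4 against 5, 5 and 5, and from -50 kb to the start 2, 3 and 4 against 5, 7 and 8. In the other 5 bins the groups overlapped.

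The region at -321 kb (chr10:98056588-98056894), between genes, stood at the head of every list. It was peak number 9, 6 and 5 of the vehicle lists and number 8, 7 and 7 of the hormone lists, and the first of all chromosome 10 peaks in each of the 6. Its place was thus nearly the same in the vehicle and the hormone lists. A place this near the head of a list has little room to rise, and it does not show whether occupancy changed. The best DR3 match in it had 2 mismatches, and the window printed above also holds the AP-1 letters and the GATA letters defined below.

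The region at -238 kb (chr10:98139686-98140050) came next, with percentiles of 99.2, 99.2 and 99.9 with vehicle and 99.6, 99.6 and 99.7 with hormone. That at -220 kb (chr10:98157754-98158076) stood at 94.96, 97.7 and 99.0 with vehicle and 98.3, 99.2 and 99.0 with hormone. At both, the groups overlapped, and every library placed the peak in its first 6%. The region at -263 kb (chr10:98114669-98115093) was more variable with vehicle, at 92.1, 78.7 and 94.8, than with hormone, at 94.0, 96.8 and 97.2. All 4 of these distant regions lay between genes, and the best DR3 match in each had 2 mismatches.

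The other regions in all 6 libraries were closer to the gene. That at -34.8 kb (chr10:98342813-98343172) stood at 93.2, 87.2 and 97.8 with vehicle and at 98.3, 99.3 and 99.7 with hormone. Here all 3 hormone percentiles were above all 3 vehicle percentiles, which was the case at 1 of the 6 and at 11.9% of such regions genome-wide, in lists of different length. That at -17.1 kb (chr10:98360529-98360921) stood at 90.3, 94.8 and 98.7 with vehicle and at 98.1, 97.6 and 98.9 with hormone, and it was the only one of the 6 with a DR3 match of at most 1 mismatch.

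**Figure D3:**
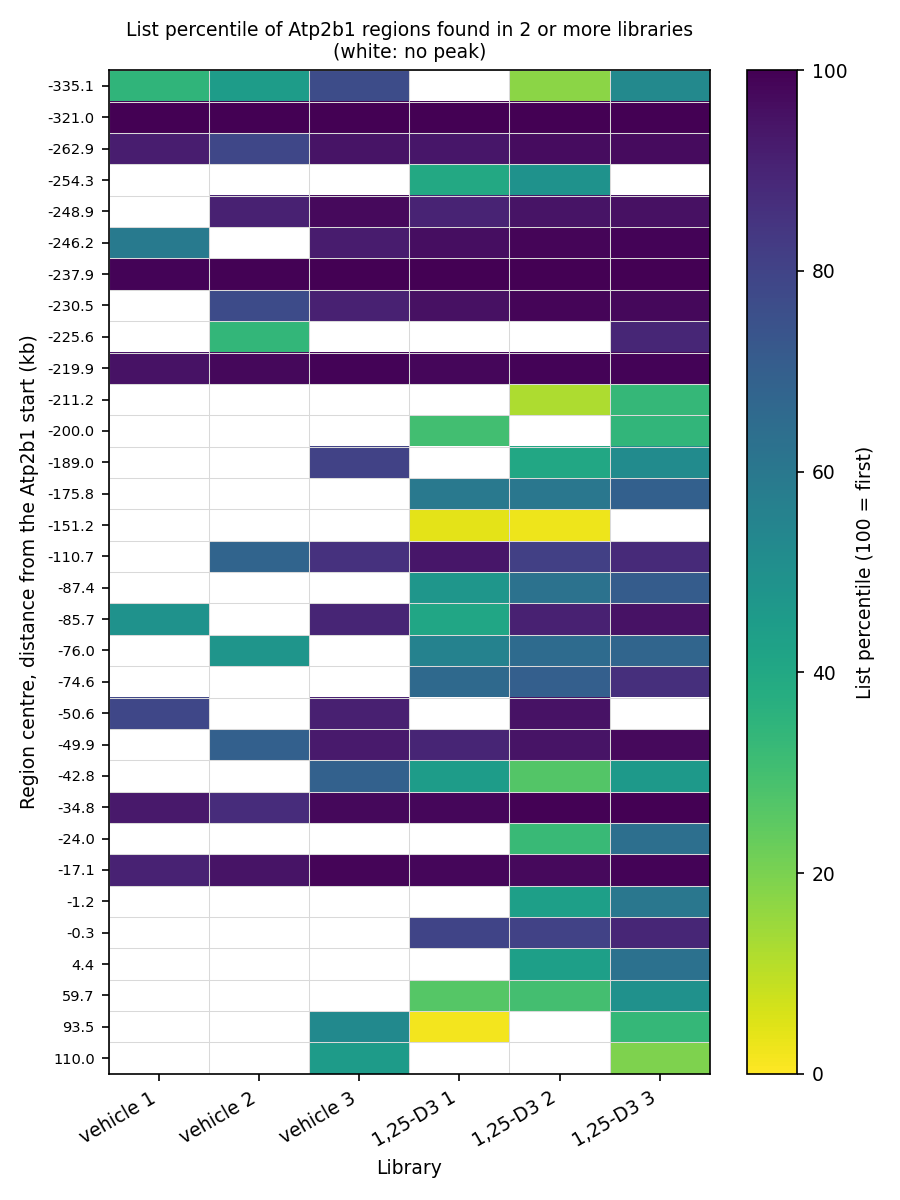
List percentile (colour, 100 for the first peak of a library, white for no peak) of the 32 Atp2b1 regions found in at least 2 libraries, ordered by distance in kb from the start (rows), in each library (columns). The 6 regions in all 6 libraries form unbroken dark rows, whereas the hormone-only rows at -175.8, -87.4, -74.6, -0.3 and 59.7 kb are filled on the right side alone and in paler shades.

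Hormone-only regions numbered 5 at Atp2b1, 4 of them upstream and 1 in an intron. The one nearest to the start, at -296 bp (chr10:98377334-98377646), stood highest, at percentiles of 79.5, 80.3 and 89.2, as peak number 5243, 6001 and 4488 of the 3 lists. Its DR3 match, GGGTCAcccGGTGCA, had 1 mismatch. The next was at -74.6 kb (chr10:98303006-98303370), at 65.8, 69.9 and 86.5, where the best DR3 match had 3 mismatches.

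The region at -176 kb (chr10:98201838-98202227) stood at 59.6, 60.5 and 69.5. The one at -87.4 kb (chr10:98290266-98290579) stood at 47.6, 62.3 and 71.0, and was the 1 region among the 79 with a DR3 match of 0 mismatches, AGGTCAaggGGTTCA, 3.5 bp from the centre of the region. The intronic region at 59.7 kb (chr10:98437309-98437681) was the lowest, at 26.5, 30.1 and 49.2. At all 5 the deep replicate 3 gave the highest percentile. Where all lists were shortened to the 8755 peaks of the shortest, 1 hormone-only region was found, the one at -296 bp, and all 6 regions of the other class were still in all 6 lists.

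Between these classes, 6 upstream regions had a peak in all 3 hormone and in 2 vehicle libraries. They lay at -249, -246, -230, -111, -85.7 and -49.9 kb, and vehicle replicate 3 had a peak at each of them, while the second vehicle library was replicate 1 at some and replicate 2 at others. The region at -246 kb (chr10:98131437-98131752) stood at 58.9 in vehicle replicate 1 and 92.6 in replicate 3, and at 96.3, 98.7 and 99.0 with hormone. Its DR3 match lay 0.5 bp from the centre. The region at -85.7 kb reached 90.9 and 95.1 in hormone replicates 2 and 3 but 40.7 in replicate 1, below both vehicle values of 49.1 and 89.7.

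A further 2 regions, at -76.0 and -42.8 kb, had a peak in all 3 hormone and 1 vehicle library. At -42.8 kb (chr10:98334710-98335178) the vehicle percentile of 68.8, in replicate 3, was above the hormone values of 44.8, 26.9 and 46.5. Another 7 Atp2b1 regions had a peak in 2 hormone libraries and no vehicle library, among them regions at -1.22 kb and 4.42 kb that both came from hormone replicates 2 and 3. The region at -335 kb was the 1 with more vehicle than hormone libraries among those with 5, with 34.6, 44.6 and 76.6 with vehicle and 17.6 and 53.1 in hormone replicates 2 and 3.

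Neighbouring regions whose edges did not touch were counted apart. Those at -50.6 and -49.9 kb are 342 bp apart. Each lacks a peak in at least 1 library, but all 6 libraries have a peak in at least 1 of the pair, and 2 have a peak in both. The hormone-only region whose DR3 match had no mismatch, at -87.4 kb, has its neighbour at -85.7 kb, 1312 bp away, with peaks in 2 vehicle libraries. Likewise the start-site region at -296 bp has a neighbour 614 bp away, found in hormone replicates 2 and 3.

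In the Atp2b1 gene body 4 of 10 regions had a peak in at least 2 libraries, and none of the 10 was in all 6. Besides the hormone-only region at 59.7 kb, these were at 4.42 kb (43.4 and 62.6 in hormone replicates 2 and 3), at 93.5 kb (vehicle replicate 3 at 52.4, hormone replicates 1 and 3 at 1.73 and 33.3) and at 110 kb. The last (chr10:98487608-98487954) lies in the exon that carries the 3′ untranslated region and was found in vehicle replicate 3 at 45.1 and hormone replicate 3 at 19.2. In the 50 kb downstream both regions were from 1 library.

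Atp2b4 (ENSMUSG00000026463.10, chr1:135599255-135697618, minus strand, 98.4 kb) has 7 annotated transcription starts. Its window also holds the starts of Zc3h11a, which encodes a zinc-finger RNA-binding protein, Lax1, which encodes an adaptor of lymphocyte signalling, and the gene model Gm17678. The vehicle libraries had 0, 1 and 6 peaks and the hormone libraries 3, 6 and 5. The groups overlapped, since vehicle replicate 3 had as many peaks as the highest hormone library. The mean was 2.33 ± 3.21 with vehicle and 4.67 ± 1.53 with hormone (SD, n = 3), a difference of 2.33 (two-sided exact permutation p = 0.4). In the shallow libraries the means were 4.5 with hormone and 0.5 with vehicle. The deep pair, 1 library per group, had 5 with hormone and 6 with vehicle, too few to say whether the direction depends on depth. The direction was not the same in every window: inside the gene body alone the difference was -0.667 peaks (exact permutation p = 1).

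The 1 hormone-only region of Atp2b4 lay at -254 bp from its outermost start (chr1:135697693-135698051). It stood in the lower parts of the hormone lists, at 42.3, 30.6 and 49.7, against 79.5, 80.3 and 89.2 for the start-site region of Atp2b1. Its best DR3 match had 3 mismatches, which is why its sequence above carries no capitals. A different region of the window recurred most, one in an intron of Lax1 at 115 kb (chr1:135582262-135582614), with percentiles of 79.8 and 90.7 in vehicle replicates 2 and 3 and of 88.2, 81.1 and 86.8 with hormone. Regions at the Zc3h11a start (chr1:135558061-135558354, 61.4 and 74.8) and 107 kb from the Atp2b4 start (chr1:135590836-135591170, 65.8 and 56.9) had peaks in hormone replicates 2 and 3 only. The remaining 9 regions came from 1 library each, 5 of them from vehicle replicate 3, and every region inside the Atp2b4 gene body was of this kind.

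Slc8a1 (ENSMUSG00000054640.7, chr17:81785359-82048947, minus strand, 264 kb) had 4 peaks in vehicle replicate 3 and 0 in each of the other 5 libraries. The groups overlapped at 0, with means of 0 with hormone and 1.33 ± 2.31 with vehicle (SD, n = 3, two-sided exact permutation p = 1), and without vehicle replicate 3 no peak was left. Of 20254 protein-coding genes with a peak within 50 kb, 10.1% likewise had peaks in vehicle replicate 3 only. The Slc8a1 window also holds the start of the gene model Gm11096. All 4 regions lay in introns of Slc8a1, at chr17:81870909-81871189, chr17:81918370-81918650, chr17:81986959-81987239 and chr17:82037650-82037930. They stood low in that list, at 13.8, 11.97, 19.9 and 3.74, where the 20 member regions found in this library alone had a median of 45.9. A list without a peak says that none passed the caller's limits in that library, not that VDR was absent from the exchanger gene.

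**Figure D4:**
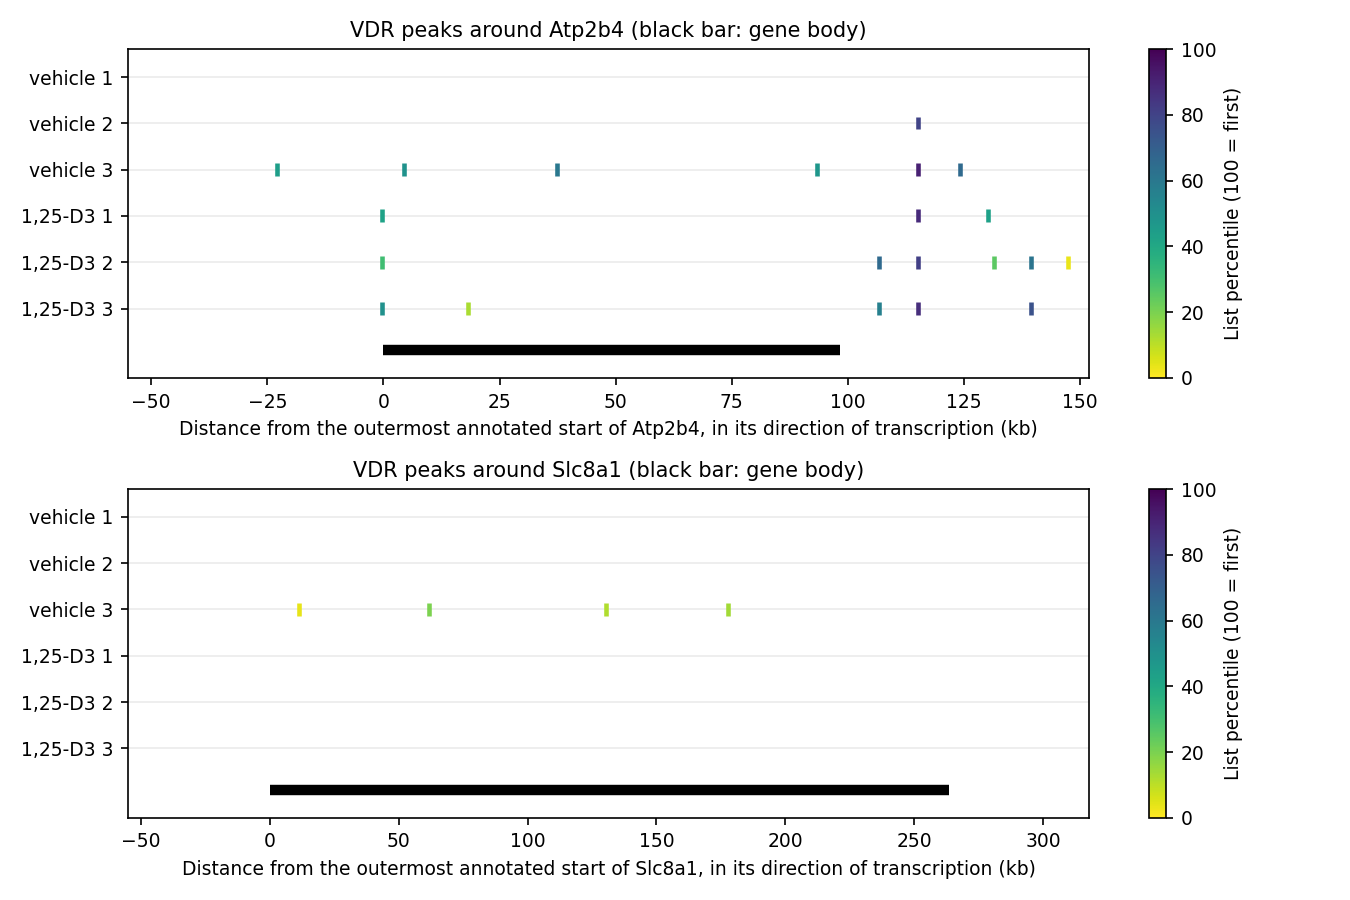
VDR peaks around Atp2b4 (top) and Slc8a1 (bottom) in each library (rows), by distance in kb from the outermost annotated start in the direction of transcription, with the black bar for the gene body and colour for the list percentile. At Atp2b4 the 3 hormone libraries share a peak at the start and 5 libraries share one at 115 kb, and at Slc8a1 the 4 peaks are all in vehicle replicate 3.

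The windows have edges, and what lies beside them was not counted. The outermost Atp2b1 region inside was at -397 kb, 2.68 kb within the limit and in 1 library, and the first one outside, 18.6 kb beyond it, was in 4 libraries. On the other side of Atp2b1, and on the upstream side of Atp2b4 and of Slc8a1, the first region outside was in 1 library. Downstream, the first region beyond the Atp2b4 window was in 3 libraries at 34.2 kb, and beyond that of Slc8a1 in 4 libraries at 273 kb.

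DR3 matches with at most 1 mismatch within 100 bp of the region centre were found in 9 of the 79 regions (11.4%, 95% Wilson interval 6.11% to 20.3%). The share was 10.9% over all regions and 4.13% in windows of the same length 5 kb to the right. Among regions with a peak in at least 2 libraries it was 7 of 36 at the 3 genes (19.4%, 9.75% to 35.0%) and 17.6% genome-wide, so the interval holds the genome-wide share. All 7 were at Atp2b1. The regions in all 6 libraries had such a match in 1 of 6 cases (28.1% genome-wide) and the hormone-only regions in 2 of 6 (20.6% genome-wide). With up to 2 mismatches the regions in all 6 libraries had a match in 6 of 6 cases, but 71.4% of such regions genome-wide and 34.4% of the shifted windows did as well.

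A set of 6 other motifs was searched as exact letters on both strands of the same windows. The AP-1 motif TGANTCA was found in 8 of the 32 Atp2b1 regions with a peak in at least 2 libraries (25.0%, 95% Wilson interval 13.3% to 42.1%), among them those at -321, -249, -111 and -34.8 kb, and in 14.0% of such regions genome-wide. The GATA motif AGATAA was found in 6 of 32 (18.8%, against 21.7%), as was the CDX motif TTTATNG (18.8%, against 13.6%). The HNF4 motif CAAAGTNCA, whose last letters can overlap a DR3 half-site, was in 2 (6.25%, against 6.89%), the GC box GGGNGGGG in 2 (6.25%, against 9.82%), one of them the region at -296 bp, and the HNF1 motif in 0 (against 0.101%). For each motif the Wilson interval of the Atp2b1 regions held the genome-wide share.

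The other genes of cellular calcium handling were read in the same way, within 50 kb of the gene body, over a list of 33 genes. In 10 of the 33 every hormone library had more peaks than every vehicle library, against the 17.7% of all genes given above, and in 0 the reverse, as in 0.0494% of all genes. None of Atp2b1, Atp2b4 and Slc8a1 met either rule by peak number. The median of the gene means was 4.33 with hormone and 2.33 with vehicle. By role, the 10 were 2 of 10 other members of the Atp2b, Slc8 and Slc24 families (with Slc8b1, which is mitochondrial), 1 of 5 intracellular pumps, 2 of 7 partners of the pumps, 1 of 2 sodium pump subunits, 2 of 4 genes of calcium entry and buffering and 2 of 5 genes of store release and store-operated entry.

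Among the paralogs, the groups were apart at the other plasma membrane pumps. Atp2b2, which encodes the pump of hair cells and neurons, had 0, 1 and 2 peaks with vehicle and 6, 6 and 8 with hormone. Atp2b3, a pump of neurons, had 1, 3 and 4 with vehicle and 7, 6 and 9 with hormone. The exchangers overlapped between groups without exception. Slc8a2 had 0, 0 and 2 peaks in both groups, and Slc8a3 had 1, 7 and 8 with vehicle and 3, 4 and 9 with hormone.

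The potassium-dependent exchangers Slc24a1 to Slc24a5 had 0 to 6 peaks with vehicle and 0 to 5 with hormone. Slc8b1, which the annotation lists as Slc24a6, had 1, 2 and 1 with vehicle and 2, 2 and 7 with hormone. The numbers closest to those of Atp2b1 over the 6 libraries were those of Atp1b1, the beta subunit of the sodium pump (Euclidean distance 6.63), Calm2, which encodes calmodulin (8), and Atp2c2, a Golgi calcium pump (8.43). For Atp2b4 they included Atp2a2 (3.16) and Atp2a3 (3.61), which encode pumps of the endoplasmic reticulum, and for Slc8a1 Slc24a2 (2.24), Slc24a5 (2.24) and Slc8a2 (2.83).

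**Figure D5:**
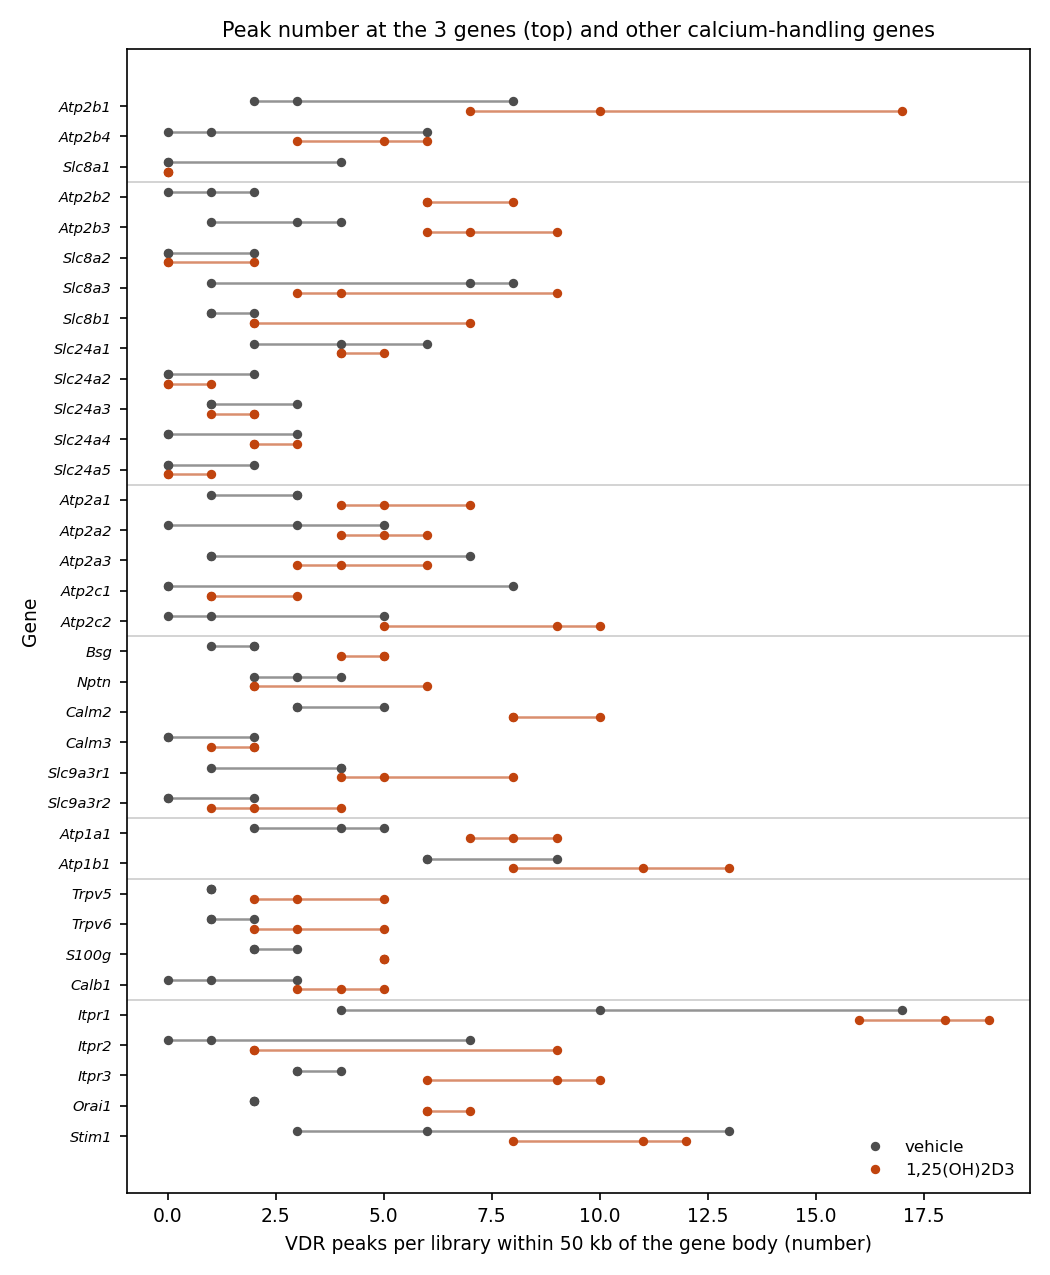
Number of VDR peaks per library within 50 kb of the gene body for Atp2b1, Atp2b4 and Slc8a1 (top) and 32 of the 33 other calcium-handling genes grouped by role (below), each dot a library and each line the range of a group, vehicle in grey and 1,25(OH)2D3 in orange. The groups are apart at 10 of the 32 genes, among them Atp2b2 and Atp2b3, and overlap at the 3 genes at the top.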

How the data were processed

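VDR ChIP-seq peak lists of 6 libraries were used (3 vehicle, 3 1,25(OH)2D3). A single input library, labelled with the hormone dose, had no list and entered no comparison. The headers of all 6 lists name 1 shared input, and no vehicle input is among the labels. Reads were aligned with Bowtie to mm9 and peaks called with HOMER, per the submitters' processing notes, with versions not given in the sources used here. Per the file headers, peaks were called in each library separately against that input, at a false discovery rate of 0.001 and at least 4-fold enrichment over the input and over the surrounding 10 kb, at a Poisson p limit of 0.0001. The deposited files give peak start and end coordinates and a score that is 1 for every peak, so no value ranks the peaks. The order of the list was used to describe rank. It followed the peak numbers within each chromosome, less closely in the vehicle lists than in the hormone lists. The lowest Spearman correlation over chromosomes was 0.938, 0.861 and 0.821 with vehicle and 0.958, 0.969 and 0.985 with hormone (replicates 1, 2 and 3). The value that the order follows is not stated.

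After leaving out other sequences than chromosomes 1 to 19, X and Y, peaks were merged at 1 bp of overlap (Python 3.11.15, numpy 2.4.6, pysam 0.24.0). The gene models were those of GENCODE mouse version 1 (Ensembl 65), on the same build. DR3 was searched on both strands within 100 bp of the centre. Peak numbers were compared by exact permutation of the group labels, and shares have 95% Wilson intervals for counting error alone. Every member region with a peak in at least 2 libraries was open to description and others were counted. Of the 33-gene list, paralogs with a peak and the 3 genes nearest to each member were to be named, and the values of 1 of them are not reported here. The members and lists were chosen with earlier results of these data known. Deviations from the group means, over 20254 genes, correlated at 0.372, 0.125 and 0.328 between libraries of the same replicate number. Between libraries of different numbers they correlated at -0.380 to 0.0647. The numbers were treated as pairs in the replicate block below, although the labels do not say what they mark, and the permutation tests used no pairs. Replicate 3 was the deep library of both groups, and the part of depth in these correlations was not tested. The merging, the exact tests and the DR3 search were tested on simulated data.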

Additional observations from a re-analysis of the deposited data

How the results depend on the processing

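Alternatives were other windows, parts of each list, lists cut to the 8755 peaks of the shortest, peaks per 10000 peaks, each replicate left out, the shallow libraries alone and a replicate block. For the peak number of the 3 genes, 54 of 59 alternatives kept the sign, 4 gave a difference of 0 (all for Slc8a1) and 1 reversed it (Atp2b4, gene body only, -0.667). The 54 include the replicate block, which cannot change the difference. With each replicate left out the difference ran from 4.17 (without 1,25(OH)2D3 replicate 3) to 9.17 at Atp2b1, from 9.33 to 16.8 upstream of it, from 1.17 (without vehicle replicate 1) to 4.17 (without vehicle replicate 3) at Atp2b4 and from -2 to 0 (without vehicle replicate 3) at Slc8a1. With lists of equal length it was 1.33 at Atp2b1 (exact permutation p = 0.1, with the groups no longer overlapping), 2 upstream of it and 0.333 at Atp2b4. Upstream, the groups were also apart within 200 kb and 100 kb (exact permutation p = 0.1 for each), with the shares of all genes given above. Without vehicle replicate 3, the longest list, they were apart too (exact permutation p = 0.1), as were the groups at Atp2b1 and Atp2b4. Without 1,25(OH)2D3 replicate 1 the upstream groups were apart as well (exact permutation p = 0.2). How often all genes are apart with a replicate left out was not counted. With the replicate block the differences are by construction those of the group means, 7, 12.3, 2.33 and -1.33. The block changes the test alone (exact sign-flip p = 0.25, 0.25, 0.5 and 1). The smallest p that 3 pairs allow is 0.25, so the block could not change a call. The 6 hormone-only regions became 1 with lists of equal length and 3 with 50 kb for all 3 genes, and ranged from 6 to 12 with a replicate left out, 12 being without 1,25(OH)2D3 replicate 1. The 6 regions in all libraries became 2 with 50 kb for all 3 genes and ranged from 6 to 11, 11 being without vehicle replicate 1. In alternatives chosen after seeing the data, the shallow libraries alone gave 9 and 6, and joining peaks within 500 bp gave 6 and 7. DR3 matches went from 9 to 1 with 0 mismatches and to 37 with up to 2. Depth limits what can be said of regions without a peak, since replicates 1 and 2 had far fewer tags than replicate 3.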
